A study of Mus musculus with 12 samples.

Results

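Lactate, pyruvate and butyrate are small monocarboxylates, and 9 genes that convert or carry them were followed in prostate organoids of the mouse that derive from basal cells. They were the lactate dehydrogenases Ldha, Ldhb and Ldhd, the carriers Slc16a1, Slc16a3, Slc16a7 and Slc5a8, and the carrier chaperones Bsg and Emb. The genes were chosen by name for their roles, with earlier results of these data known. All 9 of 9 were found among the 24674 genes of the deposited expression table. Organoids are small 3-dimensional cultures that epithelial cells form in a gel. All 12 samples came from wild-type C57BL/6 tissue, and the 4 groups of 3 samples received vehicle, UK5099, Butyrate or UK5099 + Butyrate (the combination). UK5099 blocks pyruvate entry into mitochondria through its carrier, and butyrate is an inhibitor of histone deacetylases. The study's methods name adult male C57BL/6J mice as the source of primary basal cells. The labels give no animal age, dose or treatment time for these samples, and do not say whether the replicates came from separate animals, so that the p-values measure the spread between these samples.

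Cytosolic lactate dehydrogenase is a tetramer of LDHA and LDHB subunits that interconverts pyruvate and lactate. LDHA-rich forms are known for making lactate and LDHB-rich forms for making pyruvate, whereas LDHD is a mitochondrial enzyme that oxidizes D-lactate. The SLC16 proteins MCT1 (Slc16a1), MCT4 (Slc16a3) and MCT2 (Slc16a7) move monocarboxylates together with protons. MCT4 is known as an exporter of lactate from glycolytic cells, and SLC5A8 takes up butyrate, lactate and pyruvate together with sodium. Basigin (Bsg) brings MCT1 and MCT4 to the cell surface, and embigin (Emb) does so for MCT2.

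Values were TPM as deposited, in which the fragments of a gene are divided by its distance from start to stop, with introns, and every sample has the same total. A gene was called in a limma fit on log2(TPM + 1) when its Benjamini-Hochberg adjusted p-value was under 0.01 and its log2 difference (the coefficient) was over 1 in size. That scale compresses the differences of genes well below 1 TPM. A second fit was therefore made by voom on fragments recovered from the TPM steps, with libraries scaled by the median of ratios, and its log2 differences are given beside those of limma. Samples held between 33251843 and 43498956 fragments. UK5099 replicate 1 and combination replicate 1 stood apart from the other samples of their groups, with a chi-square per degree of freedom between their fragments and those of the others of 7.42 to 7.96, against 2.03 to 2.91 for every other pair of replicates. Both fits were therefore repeated on the 10 remaining samples. Every limma call of a member was made there too and no other was added, and of the voom calls 1 was lost, that of Slc5a8 with UK5099. With TPM as deposited, genes averaging 1 TPM or more had a median coefficient of -0.12 with UK5099, -0.30 under butyrate and -0.41 under the combination, so small differences are to be read against those shifts. The basal keratins were abundant in every sample, with summed TPM of 5 basal markers between 6531 and 13880, and the summed TPM of 4 endothelial markers did not pass 0.0426.

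Levels of different genes were compared after TPM was recomputed with exonic length, which took all annotated exons of a gene together. On that scale the order in vehicle was Bsg with 2172 ± 35.6 TPM, Ldha with 1171 ± 8.98, Slc16a3 with 109.9 ± 2.26, Slc16a1 with 46.1 ± 0.719, Ldhd with 10.02 ± 0.366, Emb with 8.76 ± 0.295, Ldhb with 7.10 ± 0.715, Slc16a7 with 1.85 ± 0.154 and Slc5a8 with 0.715 ± 0.0806 (SD, n = 3). The same order held in all 4 groups, and in none of them did the ranges of neighbouring genes overlap. Those ranges give the spread between replicates only. The exons that the organoids used were not tested, so the order of genes at close levels, such as Ldhd, Emb and Ldhb, depends on the length chosen. The organoids thus carried mostly the A-type dehydrogenase transcript, the transcripts of MCT4 and MCT1, and basigin. The gap between Slc16a3 and Slc16a1 was smallest with butyrate, where exonic TPM was 127.8 ± 3.03 for Slc16a3 and 109.8 ± 1.37 for Slc16a1.

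**Figure D1:**
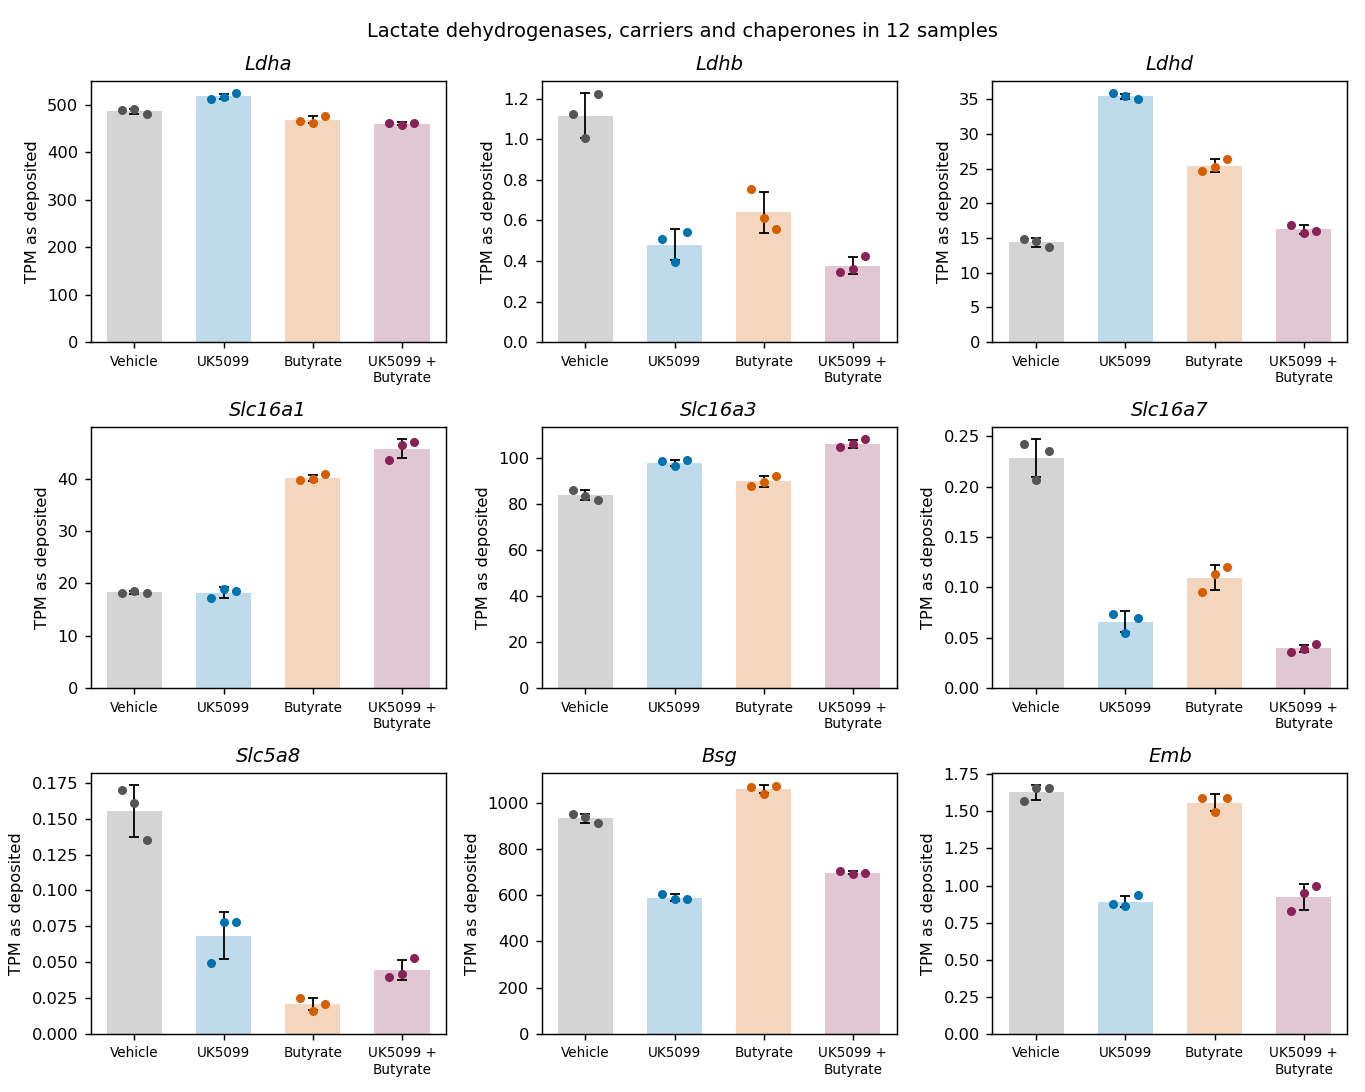
TPM as deposited (vertical axes, each from 0) of the 9 genes in vehicle, UK5099, butyrate and combination samples. Points are samples, bars are means and error bars are SD (n = 3). Slc16a1 stood at 17.1 to 19.0 TPM without butyrate and at 39.7 to 47.1 TPM with it, and Ldhd was highest with UK5099 alone.

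Slc16a1 encodes MCT1, the carrier of lactate, pyruvate and butyrate in most tissues. The table places it at chr3:104545984-104565779 on the plus strand. Slc16a1 stood at 18.1, 18.6 and 18.2 TPM in vehicle, 17.1, 19.0 and 18.6 TPM with UK5099, 39.7, 39.9 and 40.8 TPM with butyrate, and 43.6, 46.4 and 47.1 TPM under the combination. Every butyrate-containing sample lay above every sample without butyrate, while the vehicle and UK5099 samples overlapped. The level rose 2.19-fold with butyrate (coefficient 1.09 ± 0.0392 SE, limma adjusted p = 1.34e-08) and 2.50-fold under the combination (1.27 ± 0.0392, limma adjusted p = 2.63e-09). In organoids that already received UK5099, butyrate raised Slc16a1 by 1.28 ± 0.0392 on the log2 scale (limma adjusted p = 1.07e-08). UK5099 alone gave a coefficient of -0.01 ± 0.0392 (limma adjusted p = 0.938), and the voom difference was 0.14 ± 0.0393 (voom adjusted p = 0.00486), short of the limit of 1. Voom gave 1.45 ± 0.0347 for Slc16a1 with butyrate, 1.78 ± 0.0374 under the combination and 1.64 ± 0.0339 for butyrate added to UK5099. Without the samples that stood apart, the limma coefficient of Slc16a1 under the combination was 1.31 and that of butyrate added to UK5099 was 1.27. As these are bulk samples, a change in the share of cells of a type and a change in RNA per cell cannot be told apart. A pair of short listed genes on the same strand overlap Slc16a1, Gm43581 and Gm43585, and neither passed 0.817 TPM in any sample.

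Ldhd, which encodes the D-lactate dehydrogenase, was the member with the largest response to UK5099 on the log2(TPM + 1) scale. The table places it at chr8:112350417-112357007 on the minus strand. Its level was 14.9, 14.5 and 13.7 TPM in vehicle, 35.9, 35.4 and 35.1 TPM with UK5099, 24.6, 25.3 and 26.4 TPM with butyrate, and 17.0, 15.7 and 16.1 TPM under the combination. The 4 groups did not overlap, and the samples given both drugs lay closest to vehicle. UK5099 raised Ldhd 2.47-fold (coefficient 1.25 ± 0.0368 SE, limma adjusted p = 1.42e-08), and voom gave 1.46 ± 0.0474. Without UK5099 replicate 1 and combination replicate 1 the limma coefficient of Ldhd was 1.24. Butyrate alone gave 1.77-fold (0.78 ± 0.0368, limma adjusted p = 7.24e-08), which missed the limit of 1 with limma and passed it with voom (1.14 ± 0.0486, voom adjusted p = 6.61e-16). The combination gave 1.13-fold, with a coefficient of 0.17 ± 0.0368 and a voom difference of 0.65 ± 0.0482.

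The interaction term, which asks whether the effect of one drug depends on the other, was -1.86 ± 0.0520 for Ldhd (limma adjusted p = 9.67e-08) and -1.95 ± 0.0638 with voom. Butyrate added to UK5099 lowered Ldhd by a coefficient of -1.08 ± 0.0368 (limma adjusted p = 1.77e-08), whereas voom gave -0.81 ± 0.0452 and did not call it. UK5099 added to butyrate gave -0.62 ± 0.0368 with limma and -0.50 ± 0.0452 with voom. Ldhd shares 2246 bp with Znrf1, listed on the opposite strand at 2.71 to 7.39 TPM, and whether counting used strand is not given in the sources used here.

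**Figure D2:**
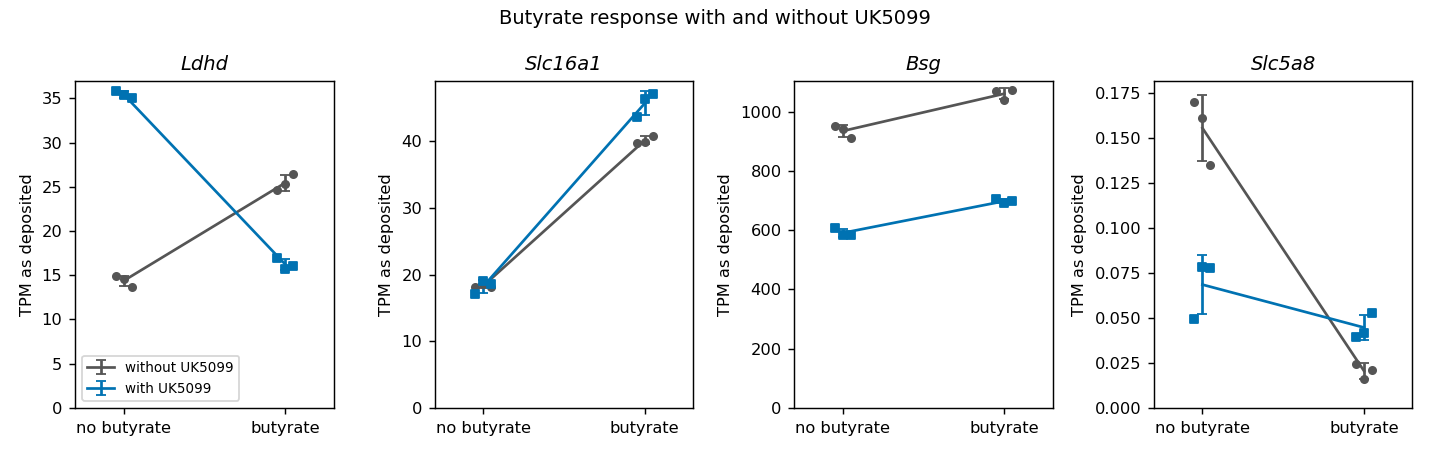
TPM as deposited (vertical axes, from 0) without and with butyrate (horizontal axis) for Ldhd, Slc16a1, Bsg and Slc5a8. Grey circles are samples without UK5099, blue squares are samples with UK5099, lines join group means and error bars are SD (n = 3). The lines cross for Ldhd, from 14.4 to 25.4 TPM without UK5099 and from 35.5 to 16.3 TPM with it, and they cross for Slc5a8 at levels up to 0.170 TPM.

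Slc16a1 and Ldhd were the members called against vehicle on log2(TPM + 1), and their promoters are shown for that reason. The sequences are the 250 bases before the RefSeq start in GRCm38.p6, given in the direction of the gene, at chr3:104638414-104638663 (plus strand) for Slc16a1 and chr8:111630337-111630586 (minus strand) for Ldhd. Those are coordinates of the reference and not of the expression table. In that table only 2.18% of nuclear genes sat at their GRCm38 position. The submitters' notes name GRCm39, against which positions were not checked. Capitals mark matches, on either strand, to CACGTG (the E-box, bound by MYC and related factors), to ACGTG (the core of a hypoxia response element, which lies within CACGTG) and to GGGCGG (the GC box).
Slc16a1: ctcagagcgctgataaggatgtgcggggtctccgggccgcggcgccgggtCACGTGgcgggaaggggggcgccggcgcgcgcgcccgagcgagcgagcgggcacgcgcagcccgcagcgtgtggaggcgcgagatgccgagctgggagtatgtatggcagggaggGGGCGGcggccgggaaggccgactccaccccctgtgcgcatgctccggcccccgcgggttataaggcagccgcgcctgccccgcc
Ldhd: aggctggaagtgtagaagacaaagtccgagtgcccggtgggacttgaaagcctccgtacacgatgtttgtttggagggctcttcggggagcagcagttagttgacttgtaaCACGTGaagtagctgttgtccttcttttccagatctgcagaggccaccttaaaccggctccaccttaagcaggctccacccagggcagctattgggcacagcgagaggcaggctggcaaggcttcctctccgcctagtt
Each of these windows held 1 CACGTG, starting at position -200 in Slc16a1 and -139 in Ldhd, counted back from -1 at the base before the start. Slc16a1 also held 1 GGGCGG, and Ldhd had no match to it. Among all 32851 RefSeq promoter windows of that length, 6.02% held CACGTG, 16.6% held ACGTG and 32.7% held GGGCGG. RefSeq windows were found for 7 of the 9 members, those of Slc16a7 and Bsg not being among them. One of 2 Ldha windows held CACGTG, and the windows of Ldhb, Slc16a3, Slc5a8 and Emb held none. A match describes the letters and does not show binding.

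Slc16a3 encodes MCT4 and lies at chr11:120839306-120851695 on the plus strand in the table. It stood at 85.9, 83.5 and 81.7 TPM in vehicle, 98.5, 96.3 and 98.8 TPM with UK5099, 87.5, 89.4 and 92.2 TPM with butyrate, and 105, 106 and 108 TPM under the combination. All treated samples lay above all vehicle samples on the deposited scale, by coefficients of 0.22 ± 0.0245 with UK5099, 0.10 ± 0.0245 under butyrate and 0.34 ± 0.0245 under the combination. None of these passed the limit of 1, and voom gave 0.38 ± 0.0226, 0.42 ± 0.0224 and 0.81 ± 0.0225. Csnk1d, on the opposite strand, shares 1879 bp with Slc16a3 and was listed at 24.4 to 34.9 TPM.

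The scarce carriers Slc16a7 and Slc5a8 were both highest in vehicle. Slc16a7 encodes MCT2, the SLC16 carrier with high affinity for pyruvate, and lies at chr10:125055139-125225335 on the minus strand. Slc16a7 had 0.242, 0.207 and 0.236 TPM in vehicle, 0.0737, 0.0544 and 0.0696 TPM with UK5099, 0.0958, 0.113 and 0.120 TPM with butyrate, and 0.0362, 0.0384 and 0.0432 TPM under the combination. These levels rested on 65 to 335 fragments per sample, and no 2 groups overlapped. In the voom fit Slc16a7 fell with UK5099 (-1.65 ± 0.133, voom adjusted p = 2.30e-10) and under the combination (-2.07 ± 0.125, voom adjusted p = 3.99e-13). Butyrate alone gave -0.75 ± 0.106 with voom and was not called. UK5099 added to butyrate lowered it by -1.32 ± 0.144 (voom adjusted p = 7.93e-08). On log2(TPM + 1) the coefficients of Slc16a7 against vehicle were -0.20 with UK5099, -0.15 under butyrate and -0.24 under the combination, and none was called.

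Slc5a8, the sodium-coupled carrier of butyrate and lactate, lies at chr10:88721854-88765378 on the plus strand. It was the scarcest member, with 49, 45 and 49 fragments in vehicle, 16, 26 and 28 with UK5099, 10, 6 and 8 with butyrate, and 19, 18 and 24 under the combination. In TPM these were 0.170, 0.161 and 0.135 in vehicle, 0.0496, 0.0780 and 0.0778 with UK5099, 0.0246, 0.0160 and 0.0210 with butyrate, and 0.0396, 0.0416 and 0.0527 under the combination. The butyrate samples were the lowest and the vehicle samples the highest, while UK5099 and combination samples overlapped. In the voom fit Slc5a8 fell with butyrate by -2.52 ± 0.333 (voom adjusted p = 6.01e-07), with UK5099 by -1.02 ± 0.239 (voom adjusted p = 0.00122) and under the combination by -1.31 ± 0.292 (voom adjusted p = 0.000478). Its interaction term was 2.23 ± 0.437 with voom (voom adjusted p = 0.000388). The UK5099 call was lost without vehicle replicate 1, vehicle replicate 2 or UK5099 replicate 1, with voom differences between -1.12 and -0.82 over the 12 fits that each left out a sample. It was lost as well without the samples that stood apart (-0.81, voom adjusted p = 0.0138). UK5099 added to butyrate gave 1.22 ± 0.317 with voom, and that call was lost without any 1 of the butyrate samples or without combination replicate 3, with values from 1.06 to 1.35. On log2(TPM + 1) the largest of these coefficients was -0.18, and none was called.

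**Figure D3:**
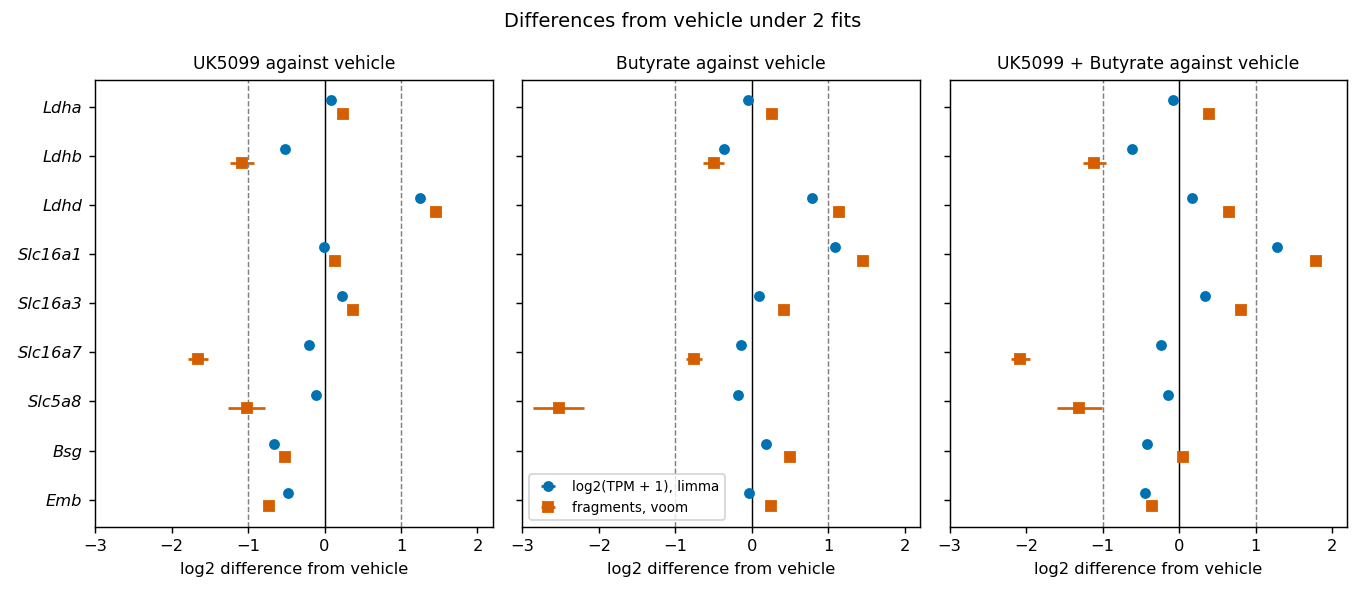
Log2 differences from vehicle (horizontal axis) of the 9 genes for UK5099, butyrate and the combination. Blue circles are limma coefficients on log2(TPM + 1), orange squares are voom differences on fragments, bars are SE and dashed lines mark 1 and -1. The fits differ most for Slc16a7 and Slc5a8, where butyrate gave -0.18 with limma and -2.52 with voom for Slc5a8.

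Ldha, the main subunit of lactate dehydrogenase, lies at chr7:46490899-46505052 on the plus strand and differed little between groups. Its level was 488, 490.4 and 479.7 TPM in vehicle, 512, 516 and 523 TPM with UK5099, 466, 462 and 477 TPM with butyrate, and 460.4, 457 and 462 TPM under the combination. The group means stayed within a change of 6.44% from vehicle. The coefficients were 0.09 ± 0.0151 with UK5099, -0.05 ± 0.0151 under butyrate and -0.08 ± 0.0151 under the combination. Voom gave 0.24 ± 0.0119, 0.26 ± 0.0118 and 0.39 ± 0.0119, so that the direction under butyrate and under the combination turned with the scaling. The listed Ldha pseudogenes Ldha-ps, Ldha-ps2 and Ldha-ps3 each held at most 1.23% as many fragments as Ldha.

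Ldhb lies at chr6:142435975-142453684 on the minus strand. It stood at 1.12, 1.00 and 1.22 TPM in vehicle, 0.506, 0.394 and 0.541 TPM with UK5099, 0.753, 0.612 and 0.558 TPM with butyrate, and 0.346, 0.361 and 0.424 TPM under the combination. All vehicle samples lay above all treated samples, while the UK5099 and combination samples overlapped. In the voom fit Ldhb fell with UK5099 (-1.08 ± 0.159, voom adjusted p = 4.81e-06) and under the combination (-1.11 ± 0.151, voom adjusted p = 7.57e-07). The UK5099 call was lost without vehicle replicate 3 or UK5099 replicate 2, with differences between -1.17 and -0.95 over the 12 fits. Butyrate gave -0.50 ± 0.139 with voom. Limma coefficients were -0.52, -0.37 and -0.62 and were not called. Ldhb had 53.5 to 180.4 fragments per sample, and 0 of its 12 values were whole, as happens when fragments are divided among similar genes. Its pseudogene Ldhb-ps held 12.2% to 30.5% as many fragments, so the level of Ldhb is uncertain.

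Bsg encodes basigin, the chaperone of MCT1 and MCT4, and lies at chr10:79540325-79547804 on the plus strand. It had 951, 941 and 913 TPM in vehicle, 607, 583 and 583 TPM with UK5099, 1069.7, 1041 and 1072 TPM with butyrate, and 706, 691 and 697 TPM under the combination. No 2 groups overlapped, with UK5099 lowest and butyrate highest. The coefficients were -0.66 ± 0.0221 with UK5099, 0.18 ± 0.0221 under butyrate and -0.42 ± 0.0221 under the combination, all short of the limit of 1. With voom they were -0.51 ± 0.0171, 0.50 ± 0.0149 and 0.05 ± 0.0160, so that the combination was lower than vehicle on the deposited scale and not after rescaling. Butyrate set against UK5099 gave 0.84 ± 0.0221 with limma and 1.01 ± 0.0161 with voom, and the voom value fell to 0.99 without UK5099 replicate 3.

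Emb encodes embigin, the chaperone of MCT2, and lies at chr13:117345072-117410952 on the plus strand. Its level was 1.57, 1.66 and 1.66 TPM in vehicle, 0.873, 0.865 and 0.935 TPM with UK5099, 1.59, 1.496 and 1.59 TPM with butyrate, and 0.829, 0.946 and 1.00 TPM under the combination. On the deposited scale the 6 samples given UK5099 lay below the 6 that were not. Within each set the butyrate and butyrate-free samples overlapped on that scale. UK5099 gave a coefficient of -0.48 ± 0.0332 and the combination -0.45 ± 0.0332, neither of them called. The voom differences were -0.72 ± 0.0654 and -0.36 ± 0.0605. Butyrate alone gave -0.04 ± 0.0332 with limma and 0.25 ± 0.0551 with voom (voom adjusted p = 0.000442). Butyrate added to UK5099 gave 0.02 ± 0.0332 with limma and 0.36 ± 0.0620 with voom (voom adjusted p = 3.00e-05), so rescaling set Emb higher with butyrate, short of the limit of 1. None of the 12 Emb values was a whole number of fragments, with 426 to 979 per sample.

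Ratios of 2 genes within a sample do not depend on how samples are scaled. The log2 ratio of Slc16a1 to Slc16a3 was -2.19 ± 0.0464 in vehicle, -2.43 ± 0.0933 with UK5099, -1.16 ± 0.0176 under butyrate and -1.22 ± 0.0382 under the combination (SD, n = 3). It was thus 2.05-fold higher than vehicle under butyrate and 1.97-fold higher under the combination. Per exonic length, Slc16a1 made up 29.2% ± 0.673 of the summed transcripts of the 3 SLC16 members in vehicle, 26.3% ± 1.26 with UK5099, 46.0% ± 0.319 under butyrate and 45.2% ± 0.652 under the combination. These ratios were of TPM with no pseudocount. The log2 ratio of Ldha to Ldhb was 8.77 ± 0.157 in vehicle, 10.09 ± 0.235 with UK5099, 9.53 ± 0.234 under butyrate and 10.26 ± 0.149 under the combination. Ldhb accounted for 0.603% ± 0.0649 of Ldha and Ldhb together in vehicle and 0.216% ± 0.0227 under the combination, per exonic length. For Bsg to Emb the log2 ratio was 9.17 ± 0.0690 in vehicle, 9.37 ± 0.0817 with UK5099, 9.41 ± 0.0281 under butyrate and 9.56 ± 0.151 under the combination. For the scarcer denominators a pseudocount matters. With 1 TPM added to both genes, the difference from vehicle in Ldha to Ldhb became 0.605 with UK5099, 0.314 under butyrate and 0.539 under the combination, and that in Bsg to Emb turned to -0.186 with UK5099 and became 0.0302 under the combination. In each of the 9 comparisons with vehicle made without a pseudocount the groups did not overlap, and each gave p = 0.1 in a two-sided exact permutation test, the smallest that 3 against 3 samples allow (adjusted p = 0.1 over the 9).

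**Figure D4:**
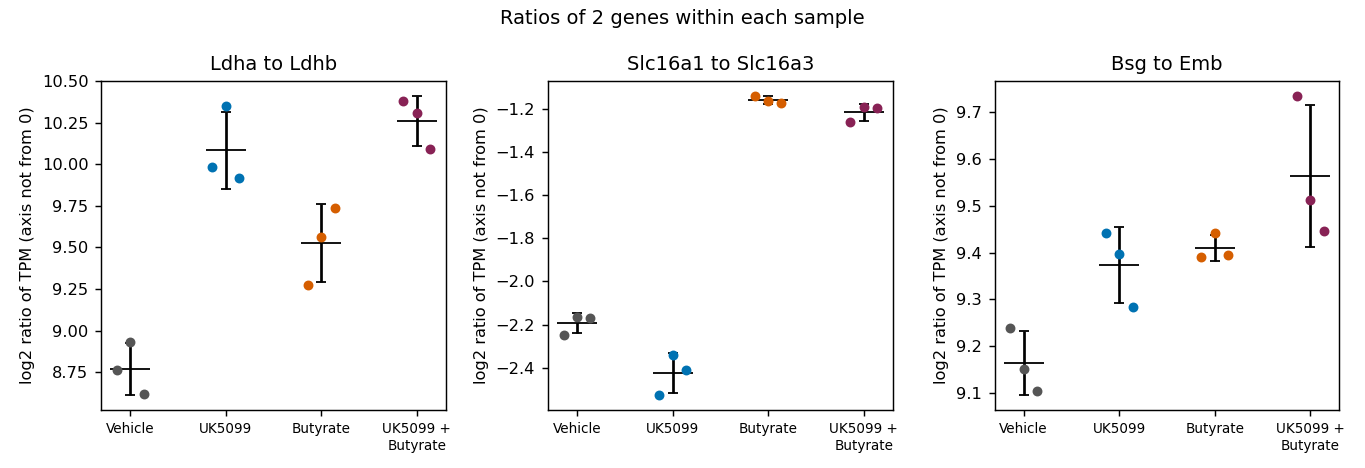
Log2 ratios of TPM (vertical axes, not from 0) of Ldha to Ldhb, Slc16a1 to Slc16a3 and Bsg to Emb in the 4 groups. Points are samples, horizontal bars are means and error bars are SD (n = 3). The Slc16a1 to Slc16a3 ratio was -2.19 in vehicle and -1.16 with butyrate.

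Counted over the 9 members, UK5099 raised 1 (Ldhd) with limma, where 0.928% of all 24674 genes were called higher. None was called lower, against 0.912% of all genes, although 5 were lower and 3 higher at an unadjusted limma p under 0.05, as were 34.3% and 13% of all genes. Voom called 1 member higher and 3 lower (Ldhb, Slc16a7 and Slc5a8), against 3.03% and 2.77% of all genes. Butyrate raised 1 member (Slc16a1) with limma, against 1.13% of all genes, and lowered none, against 2.42%, with 4 higher and 4 lower at an unadjusted p under 0.05 beside 14.2% and 42.2% of all genes. Voom called 2 higher (Ldhd and Slc16a1) and 1 lower (Slc5a8), against 6.84% and 3.70%. The combination raised 1 member (Slc16a1) with limma, against 1.79%, and lowered none, against 4.63%, with 3 higher and 6 lower at an unadjusted p under 0.05 beside 14% and 46.7% of all genes. Voom called 1 higher (Slc16a1) and 3 lower (Ldhb, Slc16a7 and Slc5a8), against 8.61% and 5.44%. These 3 comparisons share the vehicle samples. The median coefficient of the members was -0.11 with UK5099, -0.04 under butyrate and -0.15 under the combination, beside -0.03, -0.07 and -0.11 over all genes. Over genes averaging 1 TPM or more it was -0.12, -0.30 and -0.41. With voom the members had medians of -0.51, 0.26 and 0.05, beside 0.01, 0.03 and 0.05 over all genes, so that under butyrate and under the combination the sign of the members' median differed between the fits.

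In the comparisons between treated groups, butyrate added to UK5099 raised 1 member (Slc16a1) and lowered 1 (Ldhd) with limma, against 0.823% and 1.15% of all genes. Voom called 1 higher (Slc16a1) and none lower, against 5.64% and 2.36%, with 5 higher and 2 lower at an unadjusted voom p under 0.05 beside 26.0% and 25.7% of all genes. UK5099 added to butyrate changed no member with limma in either direction, against 0.551% higher and 0.357% lower over all genes, with 2 higher and 5 lower at an unadjusted p under 0.05 beside 9.35% and 33.3% of all genes. Voom called 1 higher (Slc5a8) and 1 lower (Slc16a7), against 1.86% and 1.44%. Butyrate against UK5099 gave 1 higher member (Slc16a1) and none lower with limma, against 0.681% and 1.18%, with 5 higher and 4 lower at an unadjusted p under 0.05 beside 15.7% and 34.9% of all genes. Voom called 2 higher (Slc16a1 and Bsg) and 1 lower (Slc5a8), against 4.45% and 2.76%. For the interaction, limma called 1 member below 0 (Ldhd) and none above, against 0.499% and 0.515%, with 4 above and 2 below at an unadjusted p under 0.05 beside 16.6% and 14.9% of all genes. Voom called 1 above (Slc5a8) and 1 below (Ldhd), against 1.21% and 1.49%.

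Other genes of lactate, pyruvate and butyrate handling were taken from 7 lists, of which 46 of 53 genes were in the table. Limma called 1 of the 46 higher with UK5099, 3 higher with butyrate, and 3 higher and 1 lower under the combination. Over all genes the limma shares were 0.928%, 1.13%, and 1.79% higher and 4.63% lower. Voom called 6 higher and 2 lower with UK5099, 6 higher and 1 lower under butyrate, and 8 higher and 3 lower under the combination, beside 3.03% and 2.77%, 6.84% and 3.70%, and 8.61% and 5.44% of all genes. Slc16a11, an SLC16 relative, rose with UK5099 (coefficient 1.00 ± 0.0870, limma adjusted p = 1.18e-05) and under the combination (1.34 ± 0.0870, limma adjusted p = 4.58e-07), from 20.4 to 21.5 TPM in vehicle to 39.8 to 45.4 and 50.2 to 63.9 TPM. The UK5099 call of Slc16a11 was lost without vehicle replicate 2, UK5099 replicate 1 or UK5099 replicate 3, with limma coefficients from 0.97 to 1.07 over the 12 fits, and was lost without both samples that stood apart (0.97). Gpt, which converts pyruvate and alanine into each other, rose with butyrate (1.79 ± 0.0473, limma adjusted p = 2.26e-09) and under the combination (1.85 ± 0.0473, limma adjusted p = 8.78e-10), from 5.21 to 5.43 TPM in vehicle to 20.1 to 21.4 and 21.6 to 22.2 TPM.

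Acsm3 encodes a mitochondrial enzyme that activates fatty acids such as butyrate. It rose with butyrate alone, from 1.87 to 1.96 TPM in vehicle to 6.57 to 6.65 TPM (1.38 ± 0.0883, limma adjusted p = 5.89e-07), and stood at 2.28 to 3.06 TPM under the combination. Myc encodes a transcription factor that acts on Ldha and Slc16a1 in other cells. Myc rose with butyrate (1.18 ± 0.0252, limma adjusted p = 7.15e-10) and under the combination (1.24 ± 0.0252, limma adjusted p = 2.51e-10), from 86.6 to 90.8 TPM in vehicle to 199.4 to 204 and 206 to 214 TPM. UK5099 alone gave Myc a coefficient of 0.58 ± 0.0252. Trp53, the p53 gene, fell under the combination on the deposited scale (-1.26 ± 0.0187, limma adjusted p = 5.59e-11), from 70.9 to 73.4 TPM in vehicle to 29.0 to 30.3 TPM, and voom gave -0.83, which was not called.

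**Figure D5:**
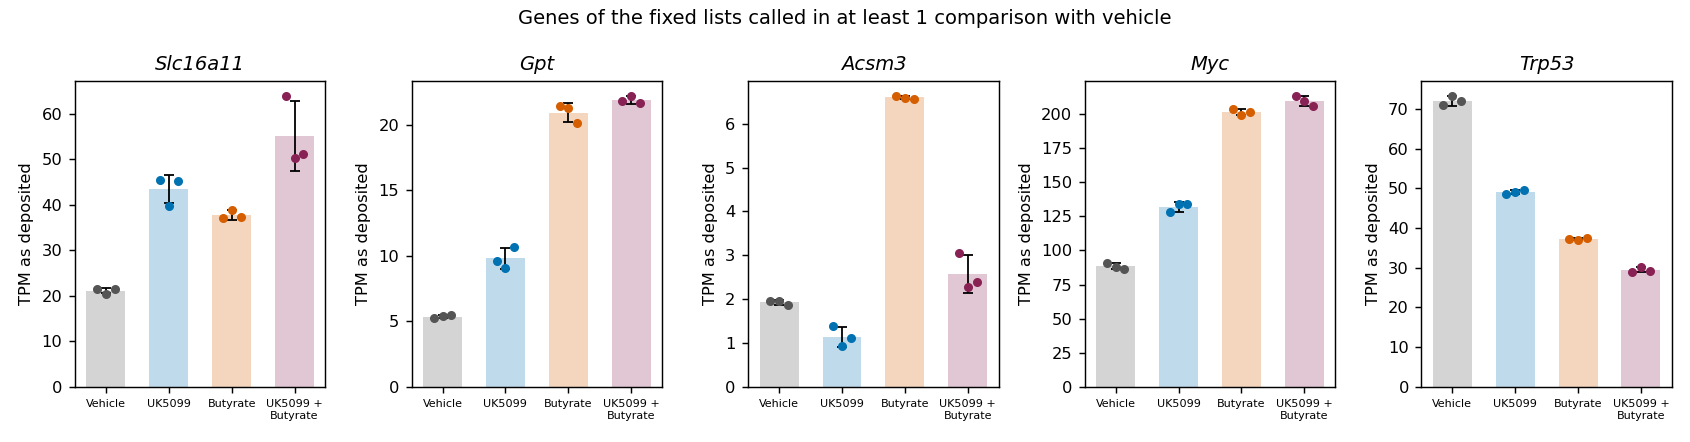
TPM as deposited (vertical axes, from 0) of Slc16a11, Gpt, Acsm3, Myc and Trp53 in the 4 groups. Points are samples, bars are means and error bars are SD (n = 3). Acsm3 was at 6.57 to 6.65 TPM with butyrate alone and at 2.28 to 3.06 TPM under the combination.

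By list, limma called 1 of the 10 other monocarboxylate carriers higher with UK5099 and 1 under the combination, both Slc16a11. Voom called 3 higher and 2 lower with UK5099, 3 higher and 1 lower under butyrate, and 4 higher and 1 lower under the combination. With UK5099 the voom calls were Slc16a9, Slc16a11 and Slc16a14 higher and Slc16a10 and Slc16a12 lower. Of these, all but Slc16a11 are named here after their values were seen. Slc16a12, a creatine carrier, had voom differences of -2.89 with UK5099, -3.33 under butyrate and -3.76 under the combination, from a mean of 0.265 TPM in vehicle. Of the 13 pyruvate makers and users, limma called 1 higher under butyrate and 1 under the combination, in both cases Gpt. With UK5099 alone Gpt was at 9.09 to 10.7 TPM, above the 5.21 to 5.43 TPM of vehicle, and limma did not call it. Voom called 1 of the 13 higher with UK5099, 1 higher under butyrate, and 1 higher and 1 lower under the combination. Of the 6 genes of butyrate activation, oxidation and export, 1 rose with butyrate (Acsm3), which had a voom difference of 2.10. Voom also called Acss2 (1.01) and Abcg2 (1.13) higher with UK5099, and Acss2 higher (1.75) and Acss1 lower (-1.46) under the combination, all 3 named after their values were seen. Acss1 and Acss2 encode enzymes that activate short-chain fatty acids, and Abcg2 encodes an exporter. Of the 7 transcription factors, 1 rose with butyrate, and 1 rose and 1 fell under the combination. The 4 other lactate dehydrogenase and glyoxalase genes, the 3 chaperone relatives and basigin ligands and the 3 receptors had no limma call against vehicle. At an unadjusted limma p under 0.05 under the combination, 1 glyoxalase list gene was higher and 2 were lower, 3 chaperone list genes were lower, and 1 receptor was higher. Voom called 1 of these 10 genes, Glo1, which was higher under the combination.

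The genes whose log2(TPM + 1) pattern over the 12 samples was most like that of Slc16a1 included Id3 (Pearson's r = 0.997) and Mgarp (0.991), out of 6212 protein-coding genes of other families that averaged 5 TPM or more. For Ldhd they were Otud1 (0.962), Epha1 (0.960) and Tnfrsf1a (0.959). The 12 points fall into 4 treatment groups and are not independent of them, so these values are descriptions.

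Marker genes of epithelial types moved with the groups. On the deposited scale, markers of 1 type did not all move the same way. The summed TPM of 5 basal markers was 6531 to 6657 in vehicle, 13500 to 13880 with UK5099, 6920 to 7158 under butyrate and 9983 to 10390 under the combination. Under butyrate, on the deposited scale, the means of Krt5 and Trp63 were above vehicle and those of Krt14, Krt15 and Itga6 below it. Krt15 was below vehicle under the combination too, from 3029 ± 61.0 to 1932 ± 83.4 TPM (SD, n = 3). On that scale genes averaging 1 TPM or more had median coefficients of -0.30 under butyrate and -0.41 under the combination. Whether Krt14, Krt15 and Itga6 stay below vehicle after rescaling was not tested. The summed TPM of 5 luminal markers was 5141 to 5339, 3046 to 3184, 2861 to 2893 and 1790 to 2004. Ldhb, Slc16a7 and Slc5a8 were highest in vehicle, as the luminal sum was. The luminal sum and Slc5a8 were higher with UK5099 than under butyrate, whereas Ldhb and Slc16a7 were lower with UK5099 than under butyrate. Bsg was highest under butyrate, and Emb was lower in the groups with the higher basal sums. The part of cell type in these results was not tested. Of 4 leukocyte markers in the table, 3 stayed under 1 TPM in every sample, Ptprc among them and Cd68 being the exception, while the sum of the 4 was 24.0 to 25.1 in vehicle, 29.8 to 31.1 with UK5099, 66.8 to 69.3 under butyrate and 87.0 to 97.7 under the combination. The 6 fibroblast markers, of which 4 stayed under 1 TPM in every sample, summed to 10.6 to 10.97 TPM under butyrate and to at most 2.885 TPM in the other groups. That sum rested on Dcn, at 9.51 ± 0.129 TPM under butyrate and 0.762 ± 0.0856 TPM in vehicle, while Col1a1 went from 1.01 ± 0.0417 TPM in vehicle to 0.713 ± 0.0788 TPM under butyrate (SD, n = 3).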

How the data were processed

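RNA was sequenced from 12 organoid samples in 4 groups of 3, assigned from the sample titles. The authors deposited TPM per gene. Per the labels, libraries were depleted of ribosomal RNA and marked strand, whereas the study's methods name a stranded mRNA kit with mRNA enrichment. The submitters' processing notes name STAR 2.7.9a, Partek and GRCm39, whereas the study's methods name fastp, STAR, the GRCm38 build and RSEM. Only 2.18% of nuclear genes sat at their GRCm38 position and 95.4% had the same span, so table coordinates are printed as given and were not mixed with the reference. The values behaved as fragments divided by genomic span. Each sample's step gave whole fragments for 58.7% to 61.0% of values (tolerance 0.02 fragment). Why the rest were not whole was not tested. Counting error only limits genes with few fragments, such as Slc5a8.

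Replicates of a group differed by more than sampling noise and each was counted, although UK5099 replicate 1 and combination replicate 1 stood apart from theirs. The main fit was limma 3.58.1 (R 4.3.3) on log2(TPM + 1) with UK5099, butyrate and their interaction, over 12 samples and 24674 genes. The coefficient is on the log2(TPM + 1) scale and understates low genes. Voom on recovered fragments was the planned second fit, and both fits were tested on simulated data. That simulation drew changes evenly up and down with no interaction, and its limit on recovery left out genes at low TPM. It therefore does not bear on the scaling of samples, the interaction or the scarce members. Exact permutation tests of ratios were made with scipy 1.17.1. Exonic lengths for 23913 genes came from GENCODE, and promoters from RefSeq. Members were fixed by name; of the lists, genes called against vehicle were named, with the 3 most similar genes for each called member, of which 1 is not reported here. The members and lists were chosen with earlier results of these data known. Alternatives were other pseudocounts, a filter, other scalings, exonic length, another prior, a replicate block, fewer groups, each sample left out and other thresholds. Voom without each sample, and both fits without the 2 samples that stood apart, were added after seeing the data.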

Additional observations from a re-analysis of the deposited data

Results flagged for a closer look

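A test of the interaction of UK5099 and butyrate, at a limma adjusted p under 0.01, singled out 4 of the 9 members whose response to one drug differed with the other, a limit that 13.4% of all genes passed. For Ldhd the interaction coefficient was -1.86 (limma adjusted p = 9.67e-08), and the voom value was -1.95. UK5099 without butyrate gave Ldhd 1.25, and UK5099 added to butyrate gave -0.62. For Slc5a8 the coefficient was 0.15 (limma adjusted p = 0.00115) on the compressed scale, and the voom value was 2.23. For Slc16a7 it was 0.11 (limma adjusted p = 0.0044), while voom gave 0.33 with a voom adjusted p of 0.297. For Ldha it was -0.12 (limma adjusted p = 0.00418), and voom gave -0.12. With 3 samples a group, single values were not tested for lying far from their group.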

How the results depend on the processing

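Genes at low TPM and the scaling of samples set the limits. Of 9 members, the number called with UK5099 was 1, and became 2 with a pseudocount of 0.1, 4 with 0.01, 4 with voom and 3 with a coefficient over 0.5. With butyrate it was 1, and became 2 with either pseudocount, median of ratios scaling, quantile normalisation or a coefficient over 0.5, and 3 with voom. With the combination it was 1, and became 3 with a pseudocount of 0.1, 4 with 0.01, 4 with voom, 3 with exonic length and 2 with a coefficient over 0.5. For UK5099 added to butyrate it was 0, and became 1 with a pseudocount of 0.01 and 2 with voom or a coefficient over 0.5. For butyrate added to UK5099 it was 2, and became 1 with median of ratios, quantile, voom or exonic length, in each of which Ldhd lost its call. For butyrate against UK5099 it was 1, and became 2 with a pseudocount of 0.01, median of ratios or a coefficient over 0.5, and 3 with voom. For the interaction it was 1, and became 2 with a pseudocount of 0.01 or voom. The share of all genes called is given above for the main fit and voom. It was not counted for the other pseudocounts, the other scalings, exonic length or a coefficient over 0.5. Whether the members moved more than all genes under those settings was therefore not tested.

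Directions turned for small differences. Slc16a1 with UK5099 became 0.135 with median of ratios, 0.121 with quantile, 0.144 with voom and 0.0139 with exonic length, and lay between -0.0356 and 0.0367 with single samples left out. Under the same 4 settings Ldha became 0.262, 0.0905, 0.263 and 0.0648 with butyrate, and 0.384, 0.0612, 0.385 and 0.0462 under the combination. Emb with butyrate became 0.152, 0.083, 0.252 and 0.0498. With median of ratios and voom, Bsg under the combination became 0.0436 and 0.045, and Ldha became 0.122 and 0.122 for UK5099 added to butyrate, 0.145 and 0.145 for butyrate added to UK5099, and 0.0231 and 0.0229 for butyrate against UK5099. Slc16a3 for butyrate against UK5099 became 0.0397 with median of ratios, 0.106 with quantile and 0.0397 with voom. Its interaction became -0.0678 with quantile and lay between -0.0011 and 0.0371 with single samples left out, while Emb for butyrate added to UK5099 lay between -0.00319 and 0.0614. With a pseudocount of 1, the log2 ratio of Ldha to Ldhb differed from vehicle by 0.605 with UK5099, 0.314 under butyrate and 0.539 under the combination, and that of Bsg to Emb by -0.186 with UK5099 and 0.0302 under the combination. The cause of these turns was not tested.

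The replicate numbers did not pair the samples: residuals of same-numbered samples correlated between -0.107 and 0.0294, and 1 of 12 samples correlated best with its own number. With the replicate block, 449 genes were called with UK5099 against 454 without it, 866 against 874 under butyrate and 1580 against 1585 under the combination, and no member changed its call. Leaving out any 1 sample changed no limma call of a member, nor did the filter at 1 TPM for the members it kept, the trended and robust prior, the fits of only the groups compared, or an adjusted p under 0.05. Without UK5099 replicate 1 and combination replicate 1 together, no limma call of a member changed, and limma called 447 genes with UK5099, 868 under butyrate and 1529 under the combination.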
